A study of Danio rerio with 19 samples.

Results

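A stretch of zebrafish chromosome 24 (GRCz11, 268 bp from the first CpG, 2 bp before position 21640624, to the last, 16 bp after position 21640873) was described CpG by CpG in ovaries and testes. Its members were chosen by position, and the region was picked because earlier results on these data had shown more methylation in ovary. The difference between the sexes is therefore given as a description, with no test. The peaked profile was also known beforehand, so the p-values of steps along it are for a shape already seen in these same samples. Of 17 cytosine positions listed in this stretch, 13 had at least 10 reads in at least 5 ovaries and 5 testes. These 13 CpGs are among 150 positions in 9 regions of the series that met this rule. The other 4 positions (21640657, 21640742, 21640756 and 21640865) had at most 3 reads in any fish and no methylated read, and were left out. No gene name for the stretch is given in the sources used here, so it is called by its chromosome.

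The samples were gonads of zebrafish of the AB strain, 90 days old, reared in a laboratory aquarium facility under control conditions. There were 9 ovary samples and 10 testis samples, with no mutant and no treated group. The question, from the series title, is whether male and female gonads differ in methylation. DNA was treated with bisulfite, which leaves methylated cytosine as C and turns unmethylated cytosine into a base read as T, and chosen regions were amplified and sequenced on a MiSeq. The labels number the samples without saying whether each came from a different animal. Each was counted as 1 fish and is named by its number, so p-values measure the spread between these samples. The files hold no marker of a tissue or cell type, so the labelled tissue was not checked.

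In vertebrates, DNA methyltransferases add methyl groups to cytosines that precede a guanine, the CpGs. Most CpGs of the zebrafish genome carry the mark in most cells, and stretches near active promoters and other regulatory elements tend to lack it. Ovary and testis are mixtures of germ cells and somatic cells, such as oocytes with their follicle cells and sperm with Sertoli and Leydig cells. Sperm and eggs are known to differ in methylation in this species. In such bulk DNA a level is the share of reads that carry the mark. Fewer methylated cells and fewer methylated copies per cell cannot be told apart.

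The region was covered evenly and deeply. The coverage was nearly the same at all 13 CpGs of a fish. The median over CpGs ran from 1168 reads (ovary 5) to 23140 (ovary 13) in ovaries and from 2398 (testis 16) to 29031 (testis 9) in testes. The 95% Wilson interval of a single level extended at most 2.86 points to either side, and intervals cover counting error only. At every one of the 13 CpGs the SD between fish was larger than the SD that counting alone gives, in both sexes. As a check for a library deposited more than once, the counts of all 171 pairs of fish were compared, and none agreed within read-counting noise. The closest were testis 4 and testis 8, with a chi-square per CpG of 3.74. Reads from PCR are not independent molecules, so this says nothing about differences between animals.

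Averaged over the 13 CpGs, ovaries stood at 28.4% ± 5.01 (SD, n = 9) and testes at 8.80% ± 4.45 (SD, n = 10). The ovaries ran from 18.9% (ovary 6) over a median of 29.8% to 33.5% (ovary 5). The testes ran from 3.44% (testis 4) over a median of 8.90% to 15.9% (testis 10). Every ovary was thus above every testis. The mean hides a strongly uneven profile in both sexes. In the means of each sex, a block of 3 CpGs within the first 50 bp and 1 CpG farther along stood far above the rest.

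**Figure D1:**
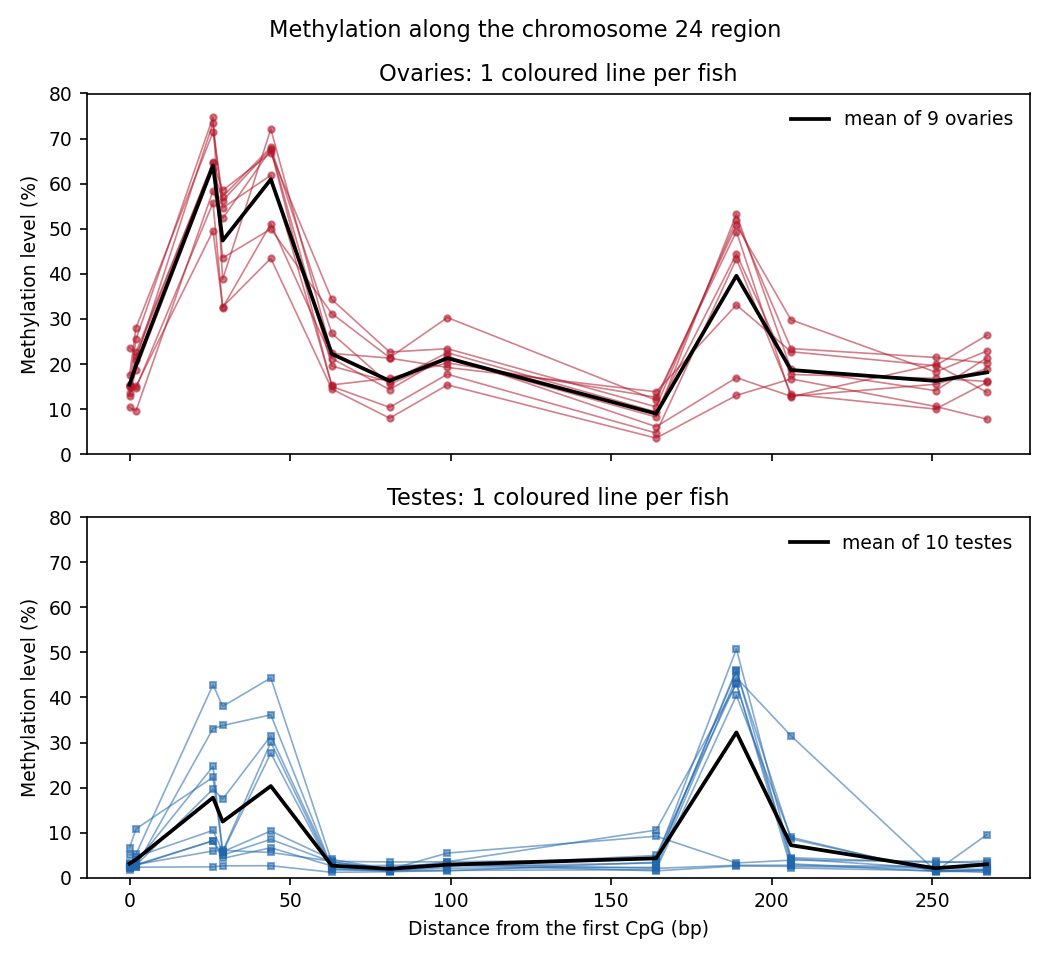
Methylation level in percent against the distance from the first CpG in bp, with 1 coloured line per fish and the mean of each sex in black. Ovaries peak at 26 to 44 bp, and their mean peaks again at 189 bp, where ovaries 6 and 11 stay low. The testes spread between about the base line and 44.3% at the first peak and split at the second.

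In ovaries the profile opened low, at 15.4% ± 3.63 (SD, n = 9) at the first CpG and 19.7% ± 5.77 at 21640624, both SDs over 9 ovaries. It then climbed within 24 bp to 64.0% ± 8.45 (SD, n = 9) at 21640648, a rise of 44.4 points seen in 9 of 9 ovaries. Only 3 bp farther, 21640651 was 16.6 points lower in 9 of 9 ovaries, at 47.4% ± 10.6 (SD, n = 9). At 21640666 the level was back at 61.0% ± 10.2 (SD, n = 9), and 19 bp later it had dropped by 38.7 points to 22.3% ± 7.201 (SD, n = 9) at 21640685. These 4 steps had an adjusted p of 0.0167 each (two-sided exact permutation of signs over fish, Benjamini-Hochberg over 282 steps in all regions and both sexes). From there the levels stayed between 16.3% and 22.3% up to 21640721 and reached their low at 21640786, with 9.01% ± 3.62 (SD, n = 9), 12.3 points below 21640721 (lower in 9 of 9 ovaries, exact permutation, adjusted p = 0.0167). The highest CpG was 21640648 or 21640666 in 9 of 9 ovaries, and the lowest was 21640786 in 9 of 9.

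The second peak in the ovary means was a single CpG, 21640811, and it was not seen in every ovary. Ovary 6 had 13.1% there and more, 16.7%, at 21640828. Ovary 11 had 16.99% there, below its 21.8% at 21640721. At 21640811 the level was 39.6% ± 15.2 (SD, n = 9), 30.6 points above 21640786, its neighbour 25 bp away, and higher in 9 of 9 ovaries (exact permutation, adjusted p = 0.0167). At 21640828, 17 bp on, it was down by 20.9 points (lower in 8 of 9 ovaries, exact permutation, adjusted p = 0.0294). The last 3 CpGs lay between 16.3% and 18.7%, and the 2 steps between them did not pass (exact permutation, adjusted p = 0.382 and 0.461), nor did the very first step (4.22 points, exact permutation, adjusted p = 0.0982). In all, 9 of the 12 steps passed in ovaries, 4 upward and 5 downward, where 28.4% of all 141 steps of the series passed. Those 141 include this region's own steps. They also include regions on chromosomes 3, 23 and 5 (67992793 to 67993138) with ovary means of 0.605%, 0.558% and 0.542%. Steps also passed on chromosomes 10, 18 and 19 and in the chromosome 5 region from 44944720 to 44945152. In the latter a step from 20.4% to 53.0% passed in ovaries (exact permutation, adjusted p = 0.0167). Passing steps are thus not shown to be particular to this region. The small steps from 21640685 to 21640703 and from 21640703 to 21640721 passed narrowly (exact permutation, adjusted p = 0.0408 each). Each lost its call when any of 8 ovaries was left out, with an adjusted p of up to 0.0743 by exact permutation. The step from 21640811 to 21640828 lost it without ovary 2, 5, 11, 13, 15 or 17 (up to 0.0537 by exact permutation).

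In the means of the testes the same positions stood out from a much lower base line. The level was 3.15% ± 1.56 (SD, n = 10) at the first CpG and 4.04% ± 2.57 (SD, n = 10) at 21640624. It rose by 13.8 points to 17.8% ± 13.1 (SD, n = 10) at 21640648, in 10 of 10 testes (exact permutation, adjusted p = 0.0167). From 21640651 to 21640666 it rose by 7.88 points, from 12.5% ± 13.02 to 20.3% ± 15.1 (SD, n = 10), in 9 of 10 testes (exact permutation, adjusted p = 0.0239). Testis 9 counts in both rises but barely rose, from 2.36% to 2.44% and from 2.67% to 2.69%. The mean level then dropped by 17.6 points to 2.70% ± 0.946 (SD, n = 10) at 21640685, in 10 of 10 testes (exact permutation, adjusted p = 0.0167). The dip at 21640651 did not pass, at -5.33 points and lower in 7 of 10 testes (exact permutation, adjusted p = 0.0501). It passed by a hair at coverage minimums of 5, 30 and 100 reads, which changed only the adjustment (exact permutation, adjusted p = 0.0477, 0.0486 and 0.0473).

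The isolated peak was present in 7 of the 10 testes. From 21640786, at 4.34% ± 3.14 (SD, n = 10), the level rose by 27.9 points to 32.3% ± 20.4 (SD, n = 10) at 21640811, in 9 of 10 testes (exact permutation, adjusted p = 0.0362). No testis stood near that mean at 21640811, since 7 were at 40.4% or higher and testes 4, 8 and 14 at 2.63%, 2.79% and 3.29%. Testes 4 and 8 count among the 9 with levels of 1.55% and 2.10% at 21640786, and testis 14 was lower at 21640811 than at 21640786, where it had 9.23%. It was down by 25.0 points at 21640828, in 8 of 10 testes (exact permutation, adjusted p = 0.0408). A further drop of 5.12 points led to 2.12% ± 0.822 (SD, n = 10) at 21640873, in 10 of 10 testes (exact permutation, adjusted p = 0.0167). The size of this drop rested largely on testis 3, which fell from 31.5% to 1.54%, while testis 14 fell only from 3.91% to 3.64%. With a fish left out the mean step ranged from -5.66 to -2.36 points. The highest CpG was 21640811 in 6 of 10 testes and 21640648 or 21640666 in the other 4. Of all 141 steps in testes, which include the barely methylated regions on chromosomes 3, 23 and 5, 31.2% passed. In this region 8 of the 12 steps passed in testes, 4 upward and 4 downward. That count was 5 without testis 7, 10, 12, 16 or 19. The steps into and out of 21640811 lost their calls without any of 7 and any of 8 testes, with adjusted p of up to 0.0640 and 0.0751 by exact permutation. With 10 fish the smallest p of 1 step is 0.00195 and with 9 fish 0.00391, so calls depend in part on how many steps of the other regions pass.

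Where the difference between the sexes sat depended on the scale. In percentage points it was widest in the first block, with 46.2 points at 21640648, 40.6 at 21640666 and 34.9 at 21640651. These 3 CpGs made up 47.8% of the difference summed over the 13 CpGs. The other 10 averaged 13.3 points, from 4.67 at 21640786 to 19.6 at 21640685. As a ratio of mean levels the block no longer led. The ovary level was 8.25 times the testis level at 21640685, 8.14 times at 21640703, 7.69 times at 21640873 and 7.29 times at 21640721, against 3.60 times at 21640648 and 2.996 times at 21640666. The lowest ratios were 1.23 at 21640811, 2.08 at 21640786 and 2.58 at 21640828, the CpGs with the smallest differences in points as well. On the log-odds scale, which treats changes near 0% and near 50% more evenly, 8 of the 13 CpGs lay between 2.11 and 2.41, namely the 6 from 21640648 to 21640721 and the last 2. The smallest values on that scale were 0.704 at 21640811, 0.895 at 21640786 and 1.42 at 21640828, which are neighbours.

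**Figure D2:**
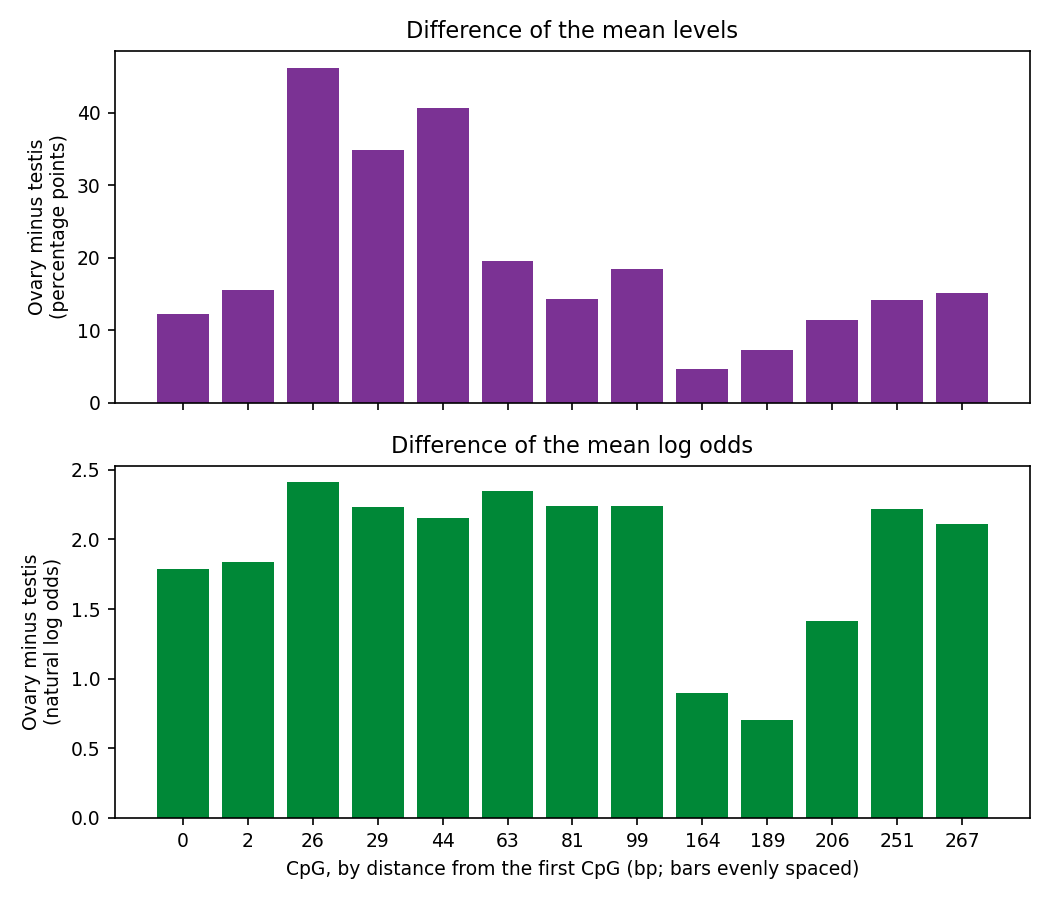
Difference between the mean of 9 ovaries and of 10 testes at each CpG, in percentage points (upper) and in natural log odds (lower), with CpGs named by their distance from the first in bp and no error drawn. In points the CpGs at 26, 29 and 44 bp tower over the rest, while in log odds the 3 CpGs at 164, 189 and 206 bp stand below the others.

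At 6 of the 13 CpGs every ovary was above every testis, and these were the 6 such CpGs among all 150 positions (4%). The region was chosen for this contrast, so nothing is read from that count. The CpGs that parted the sexes most widely were not those with the widest difference of means. At 21640685 the ovaries began at 14.5% and the testes ended at 4.09%, a gap of 10.4 points. At 21640721 the gap was 9.89 points, between 15.4% and 5.49%. At 21640648, with the widest difference, it was 6.74 points, between 49.6% (ovary 6) and 42.8% (testis 10). Gaps at 21640873, 21640703 and the first CpG were 6.39, 4.49 and 3.74 points.

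The remaining 7 CpGs overlapped, mostly through 1 or 2 testes. At 21640666, 9 of the 10 testes lay below the lowest ovary, and testis 10 at 44.3% passed ovary 6 at 43.4%. At 21640651, 8 of 10 testes lay below the lowest ovary, with testes 3 and 10 at 33.8% and 38.0% against 32.5% in ovary 11. At 21640624 and at the last CpG, 9 of 10 testes lay below the lowest ovary. Testis 12, at 10.9% and 9.57%, passed only ovary 18 at 9.60% and ovary 6 at 7.80%. The next ovaries were at 14.7% and 13.8%. At 21640828, 9 of 10 testes lay below the lowest ovary at 12.8%, and testis 3 at 31.5% was above all 9 ovaries. At 21640786, 6 of 10 lay below the lowest ovary at 3.59%. At 21640811 this held for 3 of 10.

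At 4 CpGs away from the peaks the testes were low and close together and the ovaries higher. The CpGs 21640685, 21640703, 21640721 and 21640873 had testis means of 2.70%, 2.001%, 2.92% and 2.12%, and no testis exceeded 5.49% at any of them. The highest of the 10 testes at 21640703 was testis 19 with 3.51%. Ovary means at these CpGs were 22.3%, 16.3%, 21.3% and 16.3%. Single ovaries there ran from 8.01% (ovary 6 at 21640703) to 34.3% (ovary 5 at 21640685). Other CpGs away from the peaks had more widely spread testes. They ran from 2.18% to 31.5% at 21640828 and from 1.55% to 10.6% at 21640786. At 21640624 and the last CpG they reached 10.9% and 9.57%. A conversion control was not analysed here. In the same testes the mean over a region was 0.493% on chromosome 3, 0.621% on chromosome 23 and 0.535% in the second region on chromosome 5 (67992793 to 67993138). No testis had a mean above 0.727% in any of these 3 regions, and the levels at the 4 CpGs stood above these region means. Single CpGs there varied more between testes. On chromosome 3 the step from 54607165 to 54607181 had an SD of 1.69 points over 10 testes. Levels of single testes at single CpGs of those regions were not compared. Whether conversion was equally complete in this stretch was not tested.

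In the first block the testes differed widely from each other. At 21640648 they ran from 2.44% (testis 9) over a median of 15.1% to 42.8% (testis 10), while ovaries ran from 49.6% over 64.7% to 74.8% (ovary 2). At 21640651 testes ran from 2.67% over 5.81% to 38.0%, and ovaries from 32.5% over 52.3% to 58.5%. At 21640666 testes ran from 2.69% over 19.01% to 44.3%, and ovaries from 43.4% over 66.8% to 72.1%. The testes thus held no common level in this block. The ovaries varied as well, but none was below 32.5% at any of its CpGs.

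The 3 CpGs of the block did not move as 1 unit in every testis. In testis 3 they stood at 33.1%, 33.8% and 36.1%, in testis 10 at 42.8%, 38.0% and 44.3%, and in testis 7 at 19.7%, 17.5% and 31.5%. In testis 12 and testis 16 the middle CpG 21640651 was low, at 5.71% and 5.84%. Its neighbours in testis 12 were at 22.3% and 27.6%, and in testis 16 at 24.7% and 30.1%. In testes 4, 8, 9, 14 and 19 all 3 CpGs were at 10.5% or lower. Ovaries showed the dip at 21640651 in every fish, from 6.14 points below 21640648 (ovary 18) to 35.99 points (ovary 2).

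**Figure D3:**
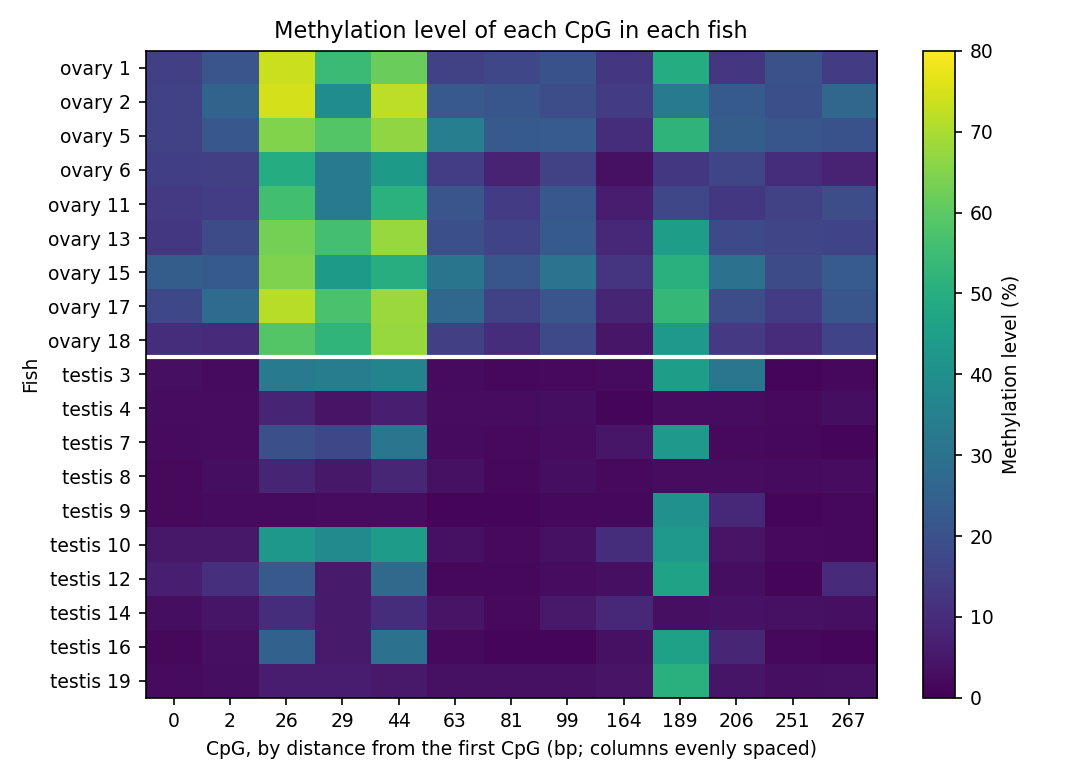
Methylation level in percent (colour, 0 to 80) of each of the 13 CpGs, named by distance from the first CpG in bp, in each of 9 ovaries (above the white line) and 10 testes (below it). All ovaries are brightest at 26 or 44 bp, while the testes show several patterns, such as testis 9 and testis 19, which stand out at 189 bp.

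At 21640811 the testes fell into 2 clusters with none between. Testes 4, 8 and 14 stood at 2.63%, 2.79% and 3.29%. Testes 9, 10, 7, 3, 16, 12 and 19 stood at 40.4%, 43.0%, 43.2%, 44.4%, 45.8%, 46.2% and 50.7%. These 7 lay inside the range of the ovaries, which ran from 13.1% (ovary 6) and 16.99% (ovary 11) over a median of 44.4% to 53.3% (ovary 17). The overlap of the sexes here, with means of 39.6% and 32.3%, thus came from these 7 testes, while the 3 others lay below every ovary. No mean within a cluster is given, since the clusters were seen in the levels themselves.

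A high level at 21640811 did not go with a high level in the first block in every testis. Testes 9 and 19 had 40.4% and 50.7% at 21640811 but 2.60% and 5.89% as the mean of the 3 block CpGs. Testes 4, 8 and 14 were low at both, with block means of 6.39%, 7.26% and 8.89%. Testes 3 and 10 were high at both, with block means of 34.3% and 41.7%. Among ovaries, ovaries 6 and 11, the lowest at 21640811, also had the lowest block means, at 41.9% and 46.5%, against 52.7% to 65.6% in the other 7.

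**Figure D4:**
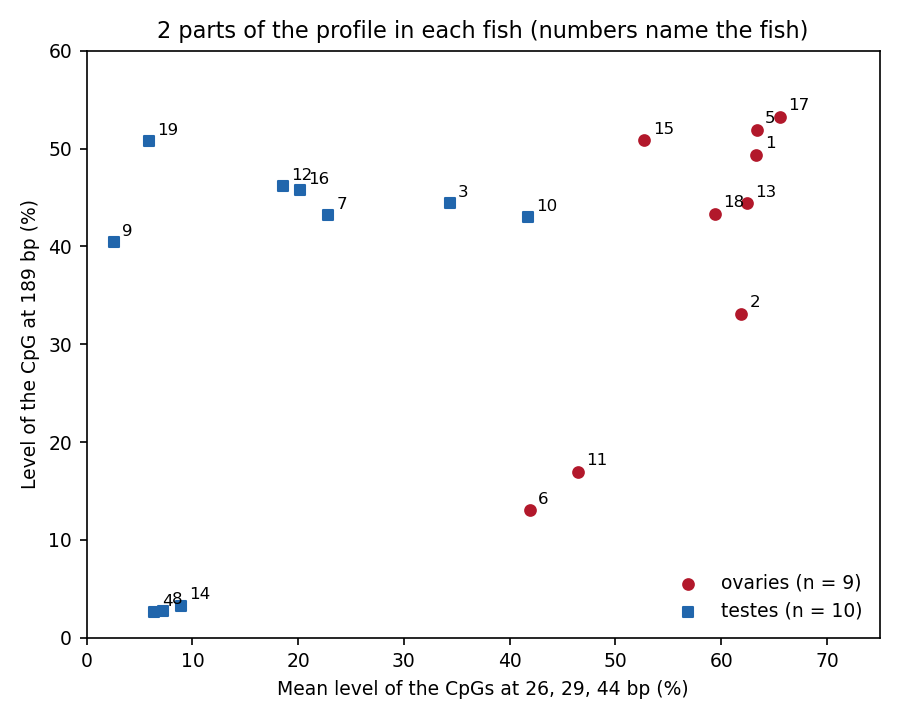
Level at the CpG 189 bp from the first against the mean level of the CpGs at 26, 29 and 44 bp, both in percent, with 1 point per fish named by its number (9 ovaries, 10 testes). Testes 9 and 19 sit at the top left, testes 4, 8 and 14 at the bottom left, and ovaries 6 and 11 below the other ovaries.

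Whether fish that were high at 1 CpG were high at the others was tested within a sex, by setting each CpG against the mean of the other 12. Of 26 relations 25 were computed, and 21640811 in testes was not, because of its clusters. In testes the 3 block CpGs passed. The 12 values of r computed there ran from -0.407 (21640873) to 0.880 (21640648), and 7 were positive. The mean of the other CpGs included 21640811 with its clusters. For 21640648 r was 0.880 (permutation p = 0.00082, adjusted p = 0.0147), rho was 0.782 (permutation p = 0.0107) and r was 0.848 without the 2 fish farthest from the median. For 21640666 r was 0.867 (permutation p = 0.00118, adjusted p = 0.0147), rho was 0.782 (permutation p = 0.0108) and r was 0.731 without such fish. For 21640651 r was 0.769 (permutation p = 0.00539, adjusted p = 0.0337), rho was 0.758 (permutation p = 0.0150) and r was 0.676. The block CpGs vary most among testes after 21640811, so each weighs on the mean that the others were set against. Without testis 10 no relation in testes passed, that of 21640666 then not being computed because of clusters. The call of 21640651 was also lost without testis 3, 4, 9 or 14 (adjusted p up to 0.0835 by exact permutation).

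In ovaries all 13 values of r were positive, from 0.416 (the first CpG) to 0.837 (21640703). Of these 4 passed, at 21640703 (r = 0.837, exact permutation p = 0.00477, adjusted p = 0.0337), 21640811 (r = 0.792, exact permutation p = 0.0125, adjusted p = 0.0478), 21640786 (r = 0.784, exact permutation p = 0.0125, adjusted p = 0.0478) and 21640648 (r = 0.779, exact permutation p = 0.0134, adjusted p = 0.0478). Their rho was 0.817, 0.683, 0.617 and 0.633 (exact permutation p = 0.0108, 0.0503, 0.0857 and 0.0760). Without the 2 fish farthest from the median r was 0.802 at 21640703 but 0.205 at 21640811, 0.546 at 21640786 and 0.318 at 21640648, so the latter 3 rest on those fish. The count of 4 was 0 without ovary 1, 2, 5, 6, 13 or 15 or testis 10, 1 without ovary 11 or 18 or testis 3, 4, 7, 9 or 14, and 2 without ovary 17. Testes enter through the adjustment. By Spearman's rho none of the 25 relations passed in either sex (lowest adjusted p = 0.0678 by permutation).

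The region's mean level was not found to move with depth within a sex. Across the 9 ovaries r with log10 coverage was -0.431 (exact permutation p = 0.248, adjusted to 0.248). Spearman's rho there was -0.633 (exact permutation p = 0.0760, adjusted to 0.152). With the 2 ovaries of most extreme depth left out r was -0.0147. Across the 10 testes r was -0.429 (permutation p = 0.216, adjusted to 0.248). Spearman's rho there was -0.442 (permutation p = 0.205, adjusted to 0.205), and r was -0.352 with the 2 most extreme testes left out. The deepest testis (9) and the shallowest (16) had region means of 5.44% and 10.1%. The deepest ovary (13) and the shallowest (5) had 29.4% and 33.5%.

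How uneven the profile was could be set against the 3 other regions in which the sexes also did not overlap in their mean levels, those on chromosomes 10, 18 and 19. In those 3 the ovaries lay below the testes, whose means were 84.3%, 79.9% and 82.5%. These means include CpGs of chromosomes 10 and 18 that the comparison left out for low coverage. The chromosome 18 CpGs that were compared had testis means from 94.8% (39636145) to 97.0% (39636518), near full methylation. The chromosome 5 region from 44944720 to 44945152 had closer means, 28.7% in ovaries and 6.43% in testes. It was not compared because its sexes overlapped, though its ovary means also jumped, from 20.4% at 44945058 to 53.0% at 44945105. The SD of the level over the CpGs of a region was taken in each fish. On chromosome 24 it was 18.9 points ± 3.19 (SD, n = 9) in ovaries and 10.8 points ± 6.19 (SD, n = 10) in testes. On chromosome 18, over 15 CpGs, it was 3.59 points ± 0.781 in ovaries and 0.876 points ± 0.531 in testes, lower than on chromosome 24 in 9 of 9 and 10 of 10 fish. The differences of 15.3 and 9.88 points had an adjusted p of 0.00586 each (two-sided exact permutation of signs, adjusted over 6).

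On chromosome 19, over 7 CpGs, the SD was larger than on chromosome 24, at 30.5 points in ovaries and 36.2 points in testes (exact permutation, adjusted p = 0.00586 each). That order rested on 1 CpG, 27019282, with mean levels of 2.93% in ovaries and 0.460% in testes. Without it the SD on chromosome 19 was 13.9 points ± 2.08 (SD, n = 9) in ovaries and 1.59 points ± 0.381 (SD, n = 10) in testes. Chromosome 24 was then the more uneven by 4.96 and 9.17 points, in 8 of 9 ovaries and 9 of 10 testes. That CpG was picked as the lowest after seeing the data, and no CpG of chromosome 24 was left out. No p-value is therefore given for this order, and nothing is concluded from it. Against chromosome 10, over 9 CpGs, no difference passed, with 2.76 points in ovaries and -0.505 points in testes (exact permutation, adjusted p = 0.0516 and 0.830). In testes 1 of those chromosome 10 CpGs, 44956872, had a mean of 61.2%, while the others had means from 91.2% to 97.4%. The comparison without that CpG was not made, so the testis value does not show a broadly uneven profile on chromosome 10. The ovary value passed without ovary 6 or without ovary 15 (exact permutation, adjusted p = 0.0281 each).

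**Figure D5:**
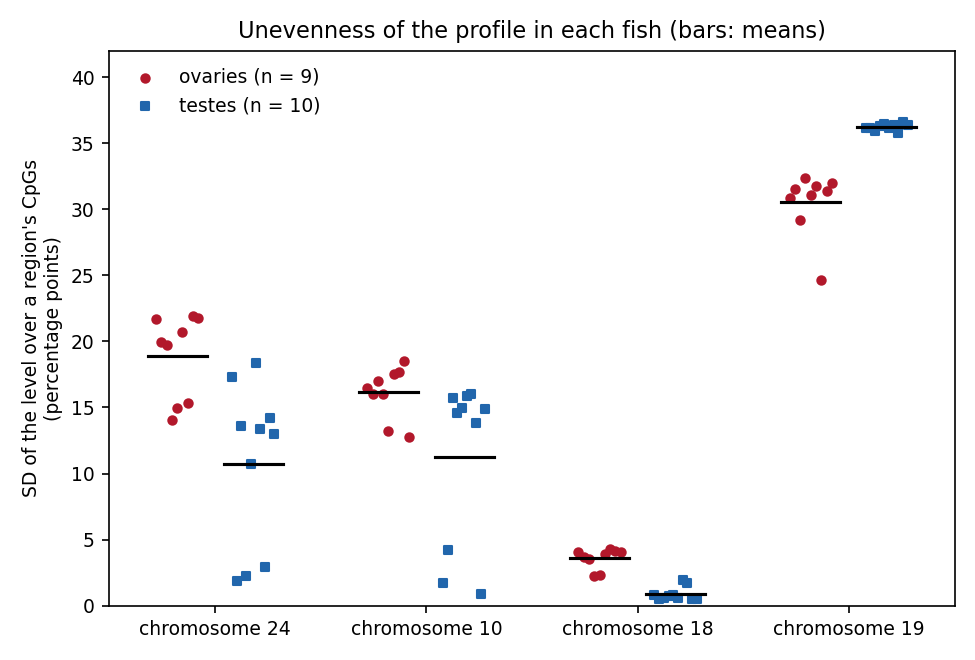
SD of the methylation level over the CpGs of a region, in percentage points, with 1 point per fish (9 ovaries, 10 testes) and a bar at each mean, for the chromosome 24 region and 3 others. Chromosome 18 is nearly flat, chromosome 10 is near chromosome 24 in the means, and chromosome 19 lies above because of 1 CpG. In testes 1 CpG of chromosome 10 has a far lower mean level than the others compared there.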

How the data were processed

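Methylation was measured by amplicon bisulfite sequencing in 9 ovaries and 10 testes. At each cytosine of each fish the deposited files hold raw counts of methylated and unmethylated reads, and the percent methylated, which the authors computed and which equals the ratio of the counts in all 4476 combinations. A series table holds the same counts. Per the submitters' processing notes, the genome build was GRCz11 and the tools were Bismark, Bowtie2, FastQC 0.11.6 and Trim Galore 0.4.5. A coverage filter and the strand are not given in the sources used here. No molecular identifiers are mentioned.

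The level was methylated over all reads at a coverage of 10 or more. Neighbouring CpGs were tested within a sex by exact permutation of signs, adjusted over 282 steps. Correlations used exact permutation for 9 fish and 100000 resamples for 10, and were not computed where the widest gap between sorted values exceeded 0.5 of their range with at least 2 fish on each side of it. Log odds used 0.5 added to both counts. The threshold was an adjusted p of 0.05. The spread comparison left out positions whose median coverage was below 10% of that of the region, of which chromosome 24 had 0. Every CpG of the stretch that met the coverage rule was named. The step test was tried on simulated counts at the real coverages, with each CpG of a fish drawn on its own. At a small spread between fish (beta-binomial parameter 0.01) it called 60.1% of 10-point and 91.4% of 20-point steps. It called 1.06% of pairs without a step there. At a wide spread (0.1) it called 0% of all of these. A step that did not pass is therefore no evidence of equal levels. The simulated levels lay above most testis levels, and the CpGs of a simulated fish were not linked. These rates thus need not hold for the real steps. The region, its members and the tests were chosen with earlier results of these data known. Computation used matplotlib 3.10.9, pandas 2.3.3, scipy 1.17.1, numpy 2.4.6 and Python 3.11.15.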

Additional observations from a re-analysis of the deposited data

Results flagged for a closer look

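Of 30 sets of values (13 CpGs, the region mean and the coverage, in each sex), 5 had a fish far from the others, where chance flags about 1 in 20. All 5 were testes, and in each the highest value lay far above the next. Testis 3 had 31.5% at 21640828, against 8.99% in the next. Testis 12 had 10.9% at 21640624, against 5.25%, and 9.57% at the last CpG, against 3.72%. Testis 14 had 5.49% at 21640721, against 3.57%. Testis 9 had a median coverage of 29031 reads, against 16366.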

How the results depend on the processing

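The difference of 19.6 points between the sexes in the region mean was 16.8 with the median over CpGs, 19.6 with reads pooled per fish, 20.5 from log odds and 18.96 to 20.8 with a fish left out. Without the 3 block CpGs and 21640811, an alternative chosen after seeing the data, it was 13.96 points.

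With a fish left out, 6 to 8 CpGs had every ovary above every testis, and 6 to 9 steps passed in ovaries and 5 to 9 in testes. The relations of a CpG with the others that passed ranged from 0 to 4 in ovaries and from 0 to 3 in testes. On the log-odds scale 2 passed in ovaries and 1 in testes. The unevenness against chromosome 10 ranged from 1.98 to 3.40 points in ovaries and from -2.29 to 0.810 points in testes, and on the log-odds scale the testis value turned to 0.246; the cause was not tested. Leaving out the lowest CpG of chromosome 19, also chosen after seeing the data, turned that comparison to 4.96 points in ovaries and 9.17 in testes. Relations in testes that turned sign, none past the threshold, ranged from -0.495 to 0.0689 at the last CpG, from -0.0731 to 0.626 at 21640786 and from -0.414 to 0.000941 at 21640721 with a fish left out. On the log-odds scale r was 0.165 at 21640685 and 0.113 at 21640721.

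Coverage minimums of 5, 30 and 100 reads left each level of this region as it was. No paired analysis was possible because the fish numbers of the sexes do not overlap. The intervals cover read counting only, and the number of template molecules behind a level is not known.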
